A study of Glycine max with 6 samples.

Results

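Phenylalanine ammonia-lyase (PAL), cinnamate 4-hydroxylase (C4H) and 4-coumarate-CoA ligase (4CL) catalyse the entry steps of phenylpropanoid metabolism, and their transcripts were compared here between seed coats of Clark soybean plants, black (iRT) against brown (irT). Probe sets were taken where their only gene symbol began with PAL and a digit, C4H, CYP73 or 4CL, and the 4CL-like probe set Gma.7423.2.S1_a_at was added by name. This gave 13 probe sets of 8 genes among 37641 probe sets for soybean transcripts on the array, with 3 for PAL, 2 for C4H and 8 for 4CL. No signal was used to choose the 12 probe sets taken by symbol. The study had listed 4CL4 and 4CL-like for their fold in these same plants, so their differences below are not independent evidence.

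The tissue was the seed coat of Clark soybean at the transition stage of development, when the fresh seed weighs between 300 and 400 mg. Seed coats of 3 black (iRT) plants and 3 brown (irT) plants were hybridized to Affymetrix Soybean GeneChips, with 1 array for each plant. The 2 nearly isogenic lines differ at the R locus, with R in black and r in brown, and share the recessive i allele and the dominant T allele. Each genotype was thus represented by a single line, and a difference cannot be assigned to R apart from other segments in which the isolines may differ. Signals are log2 values, so that 1 unit is a 2-fold change. They were made by RMA, which adjusts background, gives all arrays the same distribution of intensities and summarizes the probes of each probe set.

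PAL removes ammonia from phenylalanine to give cinnamic acid. C4H, a cytochrome P450 of the CYP73 family, hydroxylates cinnamic acid to 4-coumaric acid, and 4CL activates 4-coumaric acid to the coenzyme A thioester. This thioester is used by chalcone synthase for flavonoids, anthocyanins and proanthocyanidins, and by other enzymes for lignin. In many plants 4CL is encoded by several genes, and a class of 4CL-like proteins of the same superfamily acts on other acids.

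The arrays were alike in overall level, which RMA largely brings about and which does not show that the RNA samples were alike. Their medians over soybean probe sets lay between 5.76 and 5.91, and pairs of arrays correlated at 0.983 to 0.996 across soybean probe sets. The background level of an array was set at the 95th percentile of its 23394 probe sets for soybean pathogens and lay between 3.54 and 3.78. All 5 probe sets of the seed coat genes Ep, SCB1, HPS and PRP2 were above background on every array. PRP2, a proline-rich cell wall protein, varied widely among plants, and its probe set ending in _s_at had 14.35, 13.87 and 10.44 in black plants 1 to 3 and 12.40, 13.69 and 7.60 in brown plants 1 to 3, with plant 3 the lowest of each genotype. Of 48 probe sets for embryo storage and maturation genes, 32 were also above background on every array, and their mean level was 8.56, 7.47 and 6.22 in black plants 1 to 3, against 6.48, 7.04 and 5.87 in brown plants 1 to 3. The part of PRP2 and of these embryo genes in the results below was not tested. In whole seed coats, fewer cells of a type and less RNA for each cell cannot be told apart.

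Oligonucleotides that the study designed for RT-PCR of 4CL transcripts are shown because they state which 4CL sequences were targeted outside the array. No RT-PCR value is used here. The first pair was designed for the gene the study calls 4CL2 and the second for 4CL-like. The primer list sets the first pair beside another probe set, Gma.15972.1.A1_at, and not beside Gma.8472.1.S1_at.
4C2F: acaaacatggtggtggacaa
4C2R: ggtagaaaccgctgccact
4CF: gcaagaccaatcttgcatcc
4CR: ttttgcccaggcatatatgtaa

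Names of these genes differ between sources. The gene called 4CL4 in the array annotation (probe set Gma.8472.1.S1_at) has 4CL 2 among its synonyms in RefSeq and is the 4CL2 of the study. The gene that carries the symbol 4CL2 on the array (Gma.4928.1.S1_a_at) is a different one, and the symbols of the array are used below. In the Glycine max v4.0 assembly 4CL4 lies on chromosome 1 (chr1:56990418-56994628), 4CL1 on chromosome 17 (chr17:4990534-4996296), 4CL3 on chromosome 11 (chr11:732052-737283), and 4CL2 (chr13:45052914-45056038) and 4CL (chr13:41110103-41115568) on chromosome 13. PAL2.1 lies on chromosome 10 (chr10:5294635-5299091) and C4H on chromosome 2 (chr2:44245571-44249801).

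The array did not resolve the families equally. All 5 genes with a 4CL symbol in RefSeq had a probe set that carried no other symbol. Of 8 PAL genes, this held for 1, PAL2.1, and 4 were the symbol of no probe set. The genes PAL1.1, PAL1.2 and PAL1.3 shared 2 probe sets. Of 2 C4H genes, 1 was the symbol of a probe set. A name ending in _s_at marks a probe set whose probes match several genes, and one ending in _a_at marks a probe set for several transcripts of a single gene. Both PAL2.1 probe sets above background end in _s_at, so that no PAL gene was measured above background by probes for it alone.

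Of the 12 probe sets taken by symbol, 1 was higher in black seed coats at an adjusted p under 0.05 and 0 were lower (limma, Benjamini-Hochberg over all soybean probe sets). Over all soybean probe sets, 0.0664% were higher and 0.0425% were lower by the same rule. At an unadjusted p under 0.05 there were 2 of the 12, against 8.32% of all soybean probe sets. The median log2 difference of the 12, black minus brown, was 0.039, against -0.017 over all soybean probe sets. The probe set that was higher was that of 4CL4.

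**Figure D1:**
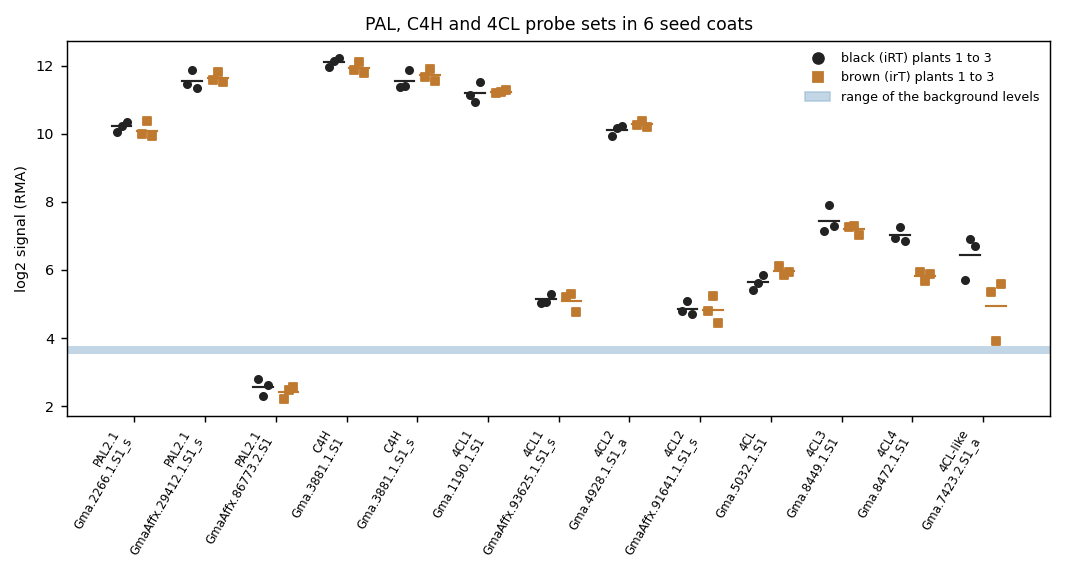
Log2 signal (vertical axis) of the 13 PAL, C4H and 4CL probe sets in black (iRT) plants 1 to 3 (circles) and brown (irT) plants 1 to 3 (squares), with a bar at each genotype mean and a band for the range of the background levels of the 6 arrays. The genotypes are apart in 4CL4 and 4CL-like and overlap in the other 11 probe sets, and GmaAffx.86773.2.S1_at of PAL2.1 lies below the band in all plants.

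No PAL probe set passed the test. The PAL2.1 probe set Gma.2266.1.S1_s_at had 10.06, 10.24 and 10.36 in black plants and 9.99, 10.37 and 9.93 in brown plants. Brown plant 2 lay at the top of the black range and the genotypes overlapped. The log2 difference was 0.12, with a 95% interval of -0.22 to 0.46 (limma adjusted p = 0.851).

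The second PAL2.1 probe set, GmaAffx.29412.1.S1_s_at, had 11.47, 11.86 and 11.35 in black plants and 11.59, 11.83 and 11.51 in brown plants. Plant 2 was the highest of each genotype, and the log2 difference was -0.086, with an interval of -0.46 to 0.28. The third, GmaAffx.86773.2.S1_at, was below background on all 6 arrays (2.29 to 2.80 in black and 2.22 to 2.55 in brown plants), so that it gives no difference. Of the 2 probe sets shared by PAL1.1, PAL1.2 and PAL1.3, GmaAffx.89508.1.A1_s_at had 8.75, 9.08 and 9.03 in black plants and 8.59, 9.13 and 8.60 in brown plants (log2 difference 0.18, interval -0.23 to 0.59). GmaAffx.93094.1.S1_s_at had 4.18 to 4.34 in black plants and 4.10 to 4.39 in brown plants. Both overlapped between the genotypes.

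The 2 probe sets of C4H differed in opposite directions, and neither passed the test. The second ends in _s_at, so that its signal may not be of C4H alone. Gma.3881.1.S1_at had 11.97, 12.14 and 12.23 in black plants and 11.87, 12.12 and 11.79 in brown plants. Its log2 difference was 0.19, with an interval of -0.10 to 0.48 (limma adjusted p = 0.719). Gma.3881.1.S1_s_at had 11.37, 11.40 and 11.88 in black plants and 11.68, 11.91 and 11.55 in brown plants. Its log2 difference was -0.16, with an interval of -0.56 to 0.23 (limma adjusted p = 0.819). Within each plant the signal of the first minus that of the second was 0.60, 0.74 and 0.35 in black plants, against 0.18, 0.21 and 0.24 in brown plants. The gap was wider in every black plant than in any brown plant. This comparison was chosen after its values were seen and has no test.

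Among the 4CL genes, 4CL1 had a difference close to 0. Gma.1190.1.S1_at had 11.14, 10.93 and 11.54 in black plants and 11.20, 11.22 and 11.28 in brown plants. The brown plants lay within 0.08 of each other and inside the wider range of the black plants. The log2 difference was -0.03, with an interval of -0.39 to 0.33 (limma adjusted p = 0.973). The other 4CL1 probe set, GmaAffx.93625.1.S1_s_at, was dim, with 5.04, 5.07 and 5.31 in black plants and 5.21, 5.30 and 4.78 in brown plants.

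For 4CL2, Gma.4928.1.S1_a_at had 9.95, 10.16 and 10.23 in black plants and 10.26, 10.39 and 10.19 in brown plants. The highest black plant exceeded only brown plant 3. The log2 difference was -0.16, with an interval of -0.42 to 0.10 (limma adjusted p = 0.725). The dim probe set GmaAffx.91641.1.S1_s_at had 4.78, 5.10 and 4.69 in black plants and 4.79, 5.25 and 4.43 in brown plants, and its interval was -0.47 to 0.53.

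The gene with the plain symbol 4CL (Gma.5032.1.S1_at) had 5.41, 5.63 and 5.85 in black plants and 6.11, 5.84 and 5.94 in brown plants. Black plant 3 lay just above brown plant 2, and these were the plants through which the genotypes overlapped. Its log2 difference of -0.33 was the lowest of the members, with an interval of -0.66 to -0.011 and an unadjusted p of 0.0443, and it did not pass after adjustment (limma adjusted p = 0.592).

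4CL3 (Gma.8449.1.S1_at) had 7.13, 7.90 and 7.30 in black plants and 7.27, 7.30 and 7.02 in brown plants. Only black plant 2 stood clearly above the brown plants. The log2 difference was 0.25, with an interval of -0.23 to 0.72 (limma adjusted p = 0.769). Without black plant 2 the difference was 0.018.

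The 10 probe sets taken by symbol that were above background on every array, 4CL4 aside, had log2 differences of -0.33 to 0.25, with 5 above and 5 below 0 and adjusted p of 0.592 to 0.977. All 10 intervals lay within a 2-fold change in either direction, with bounds of -0.66 and 0.72 at the outside. These intervals are not adjusted for the number of probe sets, and the number of arrays limits their precision.

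**Figure D2:**
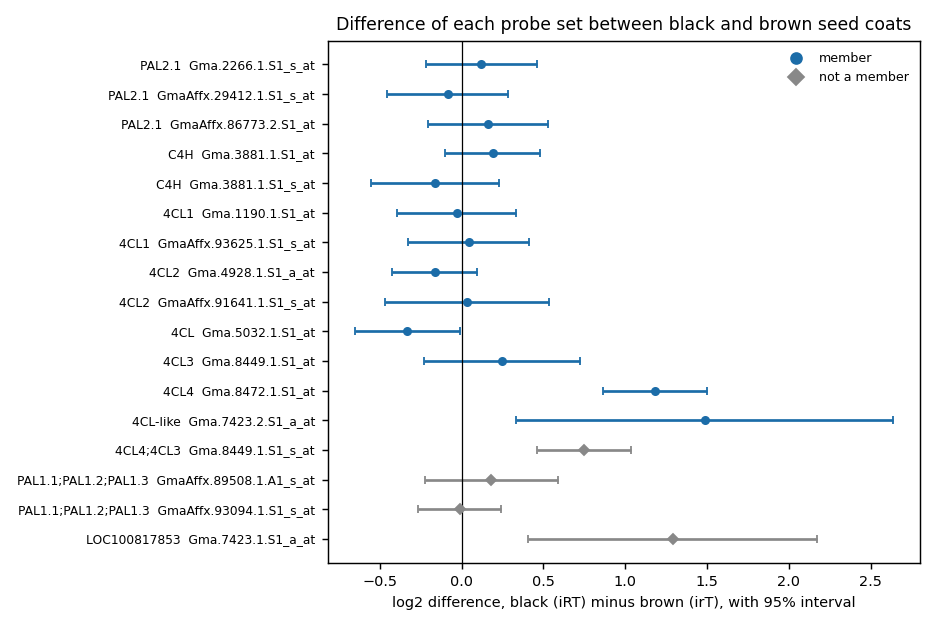
Log2 difference, black (iRT) minus brown (irT), of each probe set (horizontal axis) with its 95% interval from limma, for the 13 members (circles) and 4 probe sets that are not members (diamonds). The intervals of 4CL4, 4CL-like, the probe set shared by 4CL3 and 4CL4 (0.46 to 1.04) and LOC100817853 lie above 0, that of 4CL lies just below it, and the others include it.

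4CL4 stood apart from these genes. Gma.8472.1.S1_at had 6.92, 7.26 and 6.85 in black plants and 5.93, 5.68 and 5.88 in brown plants. Every black plant lay above every brown plant, by at least the gap between 6.85 and 5.93. The means were 7.01 ± 0.22 in black and 5.83 ± 0.13 in brown seed coats (SD, n = 3 each), a log2 difference of 1.18 (SE 0.13) or 2.27-fold (limma adjusted p = 0.0460). No overlap in this direction was seen for 5.74% of all soybean probe sets, and in the other direction for 8.3%. The adjusted p was near the threshold and lay between 0.0696 and 0.213 with any 1 of the 6 plants left out, while the difference stayed between 1.06 and 1.26. With a SAM statistic computed here by permutation and adjusted over all soybean probe sets, it was 0.144. Permutations of 3 plants against 3 cannot bring this adjusted p under 0.05 for any probe set. Its 0 calls among all soybean probe sets were thus fixed in advance. The study itself called probe sets by their fold and their SAM p-value, and listed 4CL4 by that rule. It also reported semi-quantitative RT-PCR differences for a set of selected genes. This gene, which the study calls 4CL2, and 4CL-like were among them.

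A probe set outside the rule, Gma.8449.1.S1_s_at, matches both 4CL3 and 4CL4. It had 7.12, 7.45 and 7.31 in black plants and 6.62, 6.38 and 6.64 in brown plants, without overlap. Its log2 difference of 0.75 (interval 0.46 to 1.04, limma adjusted p = 0.161) lay between the 0.25 of the 4CL3 probe set and the 1.18 of the 4CL4 probe set. Signals of 4CL3 and 4CL4 transcripts cannot be separated in it.

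4CL-like had the largest difference and the largest spread. Gma.7423.2.S1_a_at had 5.71, 6.91 and 6.71 in black plants and 5.36, 3.90 and 5.60 in brown plants. Black plant 1 lay only just above brown plant 3, and brown plant 2 was near the background level. The means were 6.44 ± 0.64 in black and 4.95 ± 0.92 in brown seed coats (SD, n = 3 each), a log2 difference of 1.49 that did not pass the test (limma adjusted p = 0.520). Without brown plant 2 the difference was 0.96. The pooled SD within genotypes was 0.79, at percentile 99.3 of soybean probe sets above background on every array, whose median was 0.15.

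A probe set whose name differs from that of 4CL-like in 1 number, Gma.7423.1.S1_a_at, is annotated to LOC100817853 on chromosome 11 (chr11:32736624-32739699). It had 4.98, 6.31 and 6.14 in black plants and 4.91, 4.03 and 4.63 in brown plants, with a log2 difference of 1.29 that did not pass the test (limma adjusted p = 0.485). Its plants stood in an order like that of 4CL-like at both ends, with black plant 2 highest and brown plant 2 lowest in both. Whether the 2 probe sets report separate transcripts was not tested.

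Plants of a genotype did not take the same places in the members as in the array at large. Of the 12 members above background on every array, brown plant 2 was the highest brown plant in 8 and the lowest in 3, and the 3 were 4CL4, 4CL-like and 4CL. Over 24407 soybean probe sets above background it was the highest brown plant in 30.4% and the lowest in 46.1%. Black plant 1 was the highest black plant in 0 and the lowest in 8 of the 12 members, against 27.2% and 32.9% of the soybean probe sets. These are counts over probe sets that share their plants, and they have no test.

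**Figure D3:**
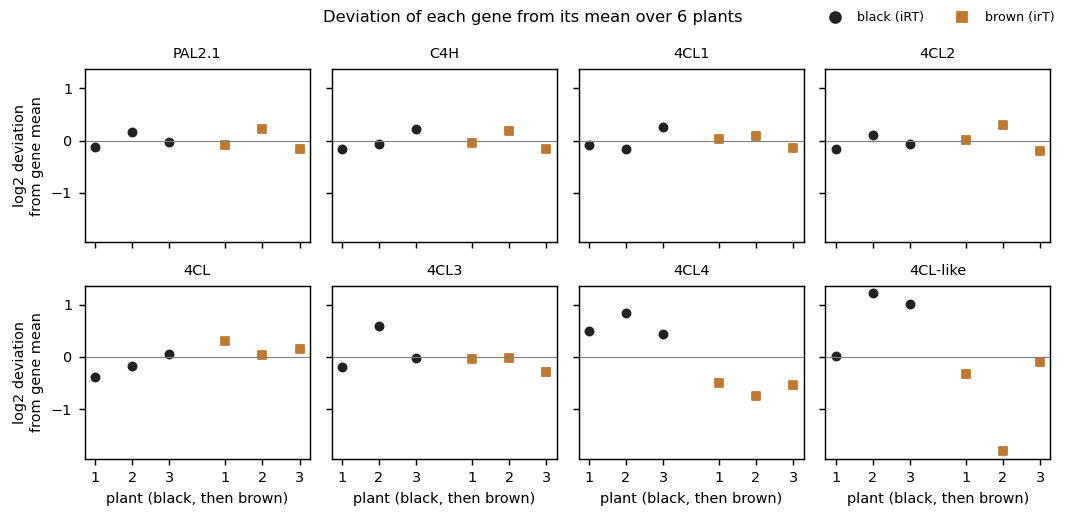
Deviation of each gene's log2 signal from its mean over the 6 plants (vertical axis), averaged over its probe sets above background, in black (iRT) plants 1 to 3 (circles, left) and brown (irT) plants 1 to 3 (squares, right). Brown plant 2 is the highest brown plant for PAL2.1 (0.22), C4H (0.19), 4CL1 (0.092) and 4CL2 (0.30) and the lowest for 4CL4 (-0.74) and 4CL-like (-1.80).

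Isogenes were then set against each other within each plant, since a level shared by 2 genes in a plant cancels in their difference. Each gene was the mean of its probe sets, so that 4CL1 and 4CL2 each average a bright probe set with a dim one ending in _s_at. The size and sign of such a difference also carry the unlike brightness of the probes, so only its change between genotypes is read. The 6 4CL genes make 15 pairs. For the 6 pairs among 4CL1, 4CL2, 4CL and 4CL3 the within-plant differences were compared between black and brown plants by an exact permutation test, two-sided, in which 3 plants against 3 cannot give a p below 0.1. The difference for 4CL3 minus 4CL was the largest of the 6. It was 1.72, 2.27 and 1.44 in black plants and 1.16, 1.46 and 1.08 in brown plants. The genotypes overlapped, since black plant 3 lay below brown plant 2, and the means differed by 0.58 (exact p = 0.2, adjusted over the 6 pairs 0.40). For 4CL3 minus 4CL2 every black plant lay above every brown plant, with -0.23, 0.27 and -0.16 in black and -0.25, -0.52 and -0.29 in brown plants. The means differed by 0.31 (exact p = 0.1, adjusted 0.40). The other 4 pairs overlapped and differed by -0.072 to 0.34, with adjusted exact p of 0.40 to 0.80.

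The 9 pairs that include 4CL4 or 4CL-like are a description only. The within-plant difference of 4CL4 minus 4CL was 1.51, 1.63 and 1.00 in black plants and -0.18, -0.16 and -0.06 in brown plants, so that the means differed by 1.51. The within-plant differences of 4CL4 minus 4CL1, minus 4CL2 and minus 4CL3 were also higher in every black plant than in any brown plant, and their genotype means differed by 1.17, 1.25 and 0.93. For 4CL4 minus 4CL-like the plants overlapped, with 1.22, 0.35 and 0.15 in black and 0.57, 1.78 and 0.28 in brown plants.

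**Figure D4:**
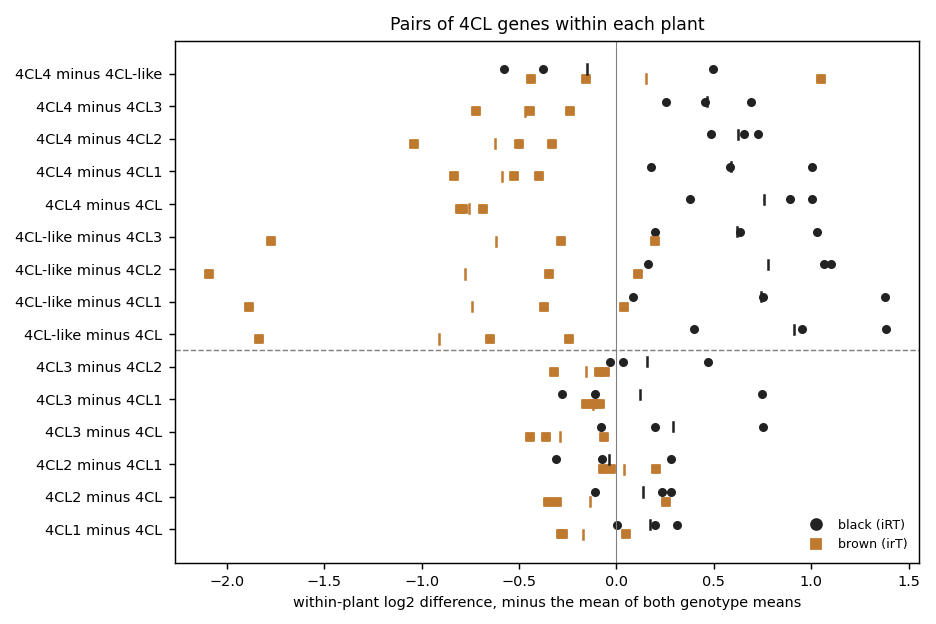
Within-plant log2 difference of each pair of 4CL genes (horizontal axis, minus the mean of both genotype means) in black (iRT) plants (circles) and brown (irT) plants (squares), with a bar at each genotype mean. Each gene is the mean of its probe sets. Above the dashed line are the 9 pairs with 4CL4 or 4CL-like, where the genotypes are apart in 7. These 7 carry the differences of 4CL4 and 4CL-like, whose own probe sets are apart, and are not separate results. Below the line are the 6 tested pairs, where only 4CL3 minus 4CL2 is without overlap. How often pairs of probe sets are apart over the whole array was not computed.

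Later steps of the pathway, taken by gene symbol, gave 56 probe sets, of which 4 were higher and 3 lower in black seed coats and 49 did not pass. Only 34 of the 56 were above background on every array, and a probe set below it in both genotypes gives no difference. The median log2 difference of the 56 was 0.12, against -0.017 over all soybean probe sets. The lists were chosen with results of these data known, and the study listed the probe sets of CHS1, DFR2, ANS2 and LAR1 that passed. They hold only probe sets with a single symbol in the array annotation, so that the flavonoid 3'-hydroxylase and IFR1-like probe sets of the study, which have no entry there, are not in them. No probe set matched the symbols sought for phenylalanine supply.

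Chalcone synthase, which takes the 4CL product into flavonoids, had 12 probe sets, with 5 above background on every array. Of the 12, 2 were higher and 2 lower. All 4 carry the symbol CHS1 on the array, but the study names them CHS1, CHS9 and CHS4/CHS5. Gma.17605.1.S1_at had 4.05, 3.58 and 4.09 in black plants and 8.86, 9.27 and 9.04 in brown plants (log2 difference -5.15). Black plant 2 was below the background level of its array (3.78), so that this size is not exact. GmaAffx.92491.1.S1_s_at had 2.93, 3.15 and 3.18 in black plants, all below background, and 7.38, 7.68 and 7.46 in brown plants, and was at least 14.0-fold lower in black. Both were thus low in all black plants and high in all brown plants. GmaAffx.42116.1.S1_at had 5.63, 5.75 and 6.53 in black plants and 2.71, 2.41 and 2.41 in brown plants, where it was below background, and was at least 5.18-fold higher in black. GmaAffx.42116.1.S1_x_at had 5.66, 5.19 and 6.16 in black plants and 2.86, 2.40 and 2.72 in brown plants, again below background, and was at least 4.21-fold higher. Of 12 chalcone isomerase probe sets none passed, but only 4 were above background on every array. CHI2-A, which was, had a log2 difference of 0.64 (limma adjusted p = 0.0941). None of the 4 F3H and FLS probe sets in the list passed, and 2 were above background on every array.

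The dihydroflavonol reductase and anthocyanidin synthase list had 3 probe sets, of which 2 were higher. DFR2, which makes leucoanthocyanidins, had 8.85 ± 0.14 in black and 2.89 ± 0.18 in brown seed coats (SD, n = 3 each), where it was below background, and was at least 38.2-fold higher. ANS2, which makes anthocyanidins, had 13.28 ± 0.045 in black and 10.52 ± 0.35 in brown seed coats (SD, n = 3 each). LAR1, a leucoanthocyanidin reductase, was 1 of 2 reductase probe sets and fell by 1.18 on the log2 scale. None of the 15 isoflavonoid and 8 lignin branch probe sets in the lists passed. The isoflavonoid probe sets, 12 of them above background on every array, had log2 differences of -0.62 to 1.75. The lignin branch list held CYP98A2, a hydroxylase of the coumaroyl esters, and CCR, cinnamoyl-CoA reductase, with log2 differences of -0.12 to 0.33.

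**Figure D5:**
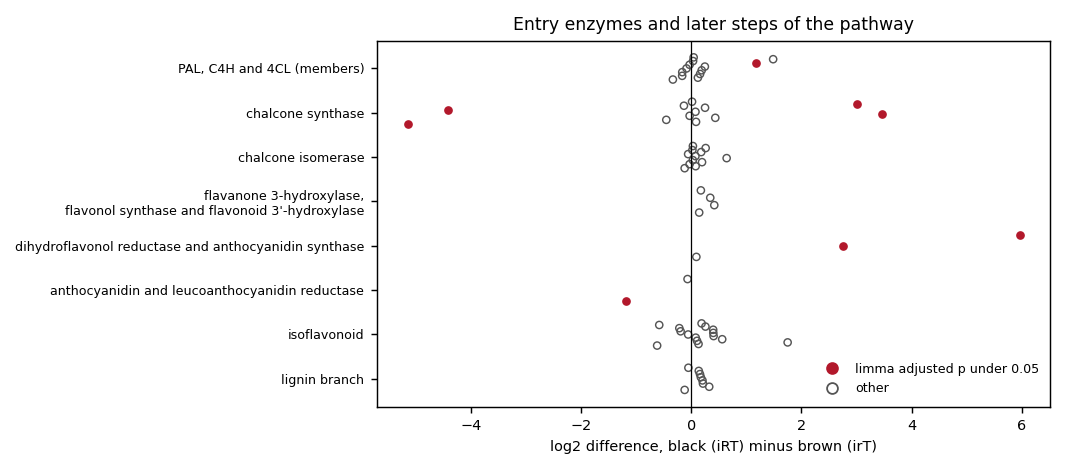
Log2 difference, black (iRT) minus brown (irT), of each probe set (horizontal axis) in the PAL, C4H and 4CL members and in 7 lists of later enzymes, filled where the limma adjusted p was under 0.05. Among the members 1 is filled (4CL4, at 1.18), while chalcone synthase has 4 filled, 2 higher and 2 lower, and dihydroflavonol reductase with anthocyanidin synthase has 2. For DFR2, both GmaAffx.42116.1 probe sets and GmaAffx.92491.1.S1_s_at the lower genotype was below background, so that their plotted positions are no exact sizes. The position of Gma.17605.1.S1_at is not exact either, since black plant 2 was below background.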

How the data were processed

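The authors hybridized RNA from 3 black and 3 brown plants and deposited log2 signals made by RMA. Versions of their software are not given in the sources used here. They also deposited 2 tables of selected probe sets with means, variances, fold ratios, SAM scores and p-values, which were not used. All 6 per-sample columns were mapped to plants. Replicates were separate plants.

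The genotypes were set against each other, unpaired, by the two-sided moderated test of limma 3.58.1 under R 4.3.3 (default eBayes, 3.17 prior degrees of freedom), with Benjamini-Hochberg adjustment over 37641 soybean probe sets and a threshold of 0.05. The study's methods used SAM, and a SAM statistic with permutations and the same adjustment was tried here as an alternative. Isogene pairs were compared with exact permutation tests in scipy 1.17.1. The fit was tested on simulated data. Figures were drawn with matplotlib 3.10.9.

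Every member is named, and from each pathway list those past the threshold and at most 3 others, taken among those of smallest p. A fold is a lower bound, against the background level, where all plants of the lower genotype lay below it. The members and lists were chosen with earlier results of these data known. Gene symbols come from the array annotation (8677 soybean probe sets with 1 symbol, 370 with several and 28594 with none). Promoter and protein sequences were not analysed here.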

Additional observations from a re-analysis of the deposited data

How the results depend on the processing

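The call of 4CL4 depended on the setting. Its log2 difference was 1.13 to 1.23 under 9 alternatives other than leaving out plants, and its limma adjusted p was under 0.05 in 7 of these 9. With the SAM statistic computed here the adjusted p was 0.144, and 0 members, like 0 of all 37641 soybean probe sets, were higher in black. This count was fixed in advance, since permutations of 3 plants against 3 cannot give an adjusted p under 0.05. The study's rule was another one, with limits on the fold and the SAM p-value. With any 1 plant left out, 0 to 0 members were higher, and 9 to 20 of all soybean probe sets against 25 with all plants, the adjusted p of 4CL4 being lowest without black plant 3. The count of members lower in black was 0 in all settings.

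The replicate numbers were not treated as pairs, since no label ties same-numbered plants together and their deviations from the genotype means correlated at 0.092, 0.29 and 0.50, not all over 0.1. Of the 6 plants, 5 correlated best with the plant of their own number in the other genotype, which is a hint from the data. The study's methods state that seed coats to be compared were harvested on the same days, but tie no replicate number to a day. A replicate block in the fit left 0 members higher, with 14 of all soybean probe sets higher and 9 lower against 25 and 16, and the adjusted p of 4CL4 was 0.204. The cause of these losses was not tested.

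Signs changed in 4 members whose differences were small. 4CL1 (Gma.1190.1.S1_at) had 0.019 with median centring and 0.015 with cyclic loess, and -0.20 to 0.10 with a plant left out. The ranges with a plant left out were -0.24 to 0.020 for PAL2.1 (GmaAffx.29412.1.S1_s_at), -0.16 to 0.24 for 4CL2 (GmaAffx.91641.1.S1_s_at) and -0.11 to 0.15 for 4CL1 (GmaAffx.93625.1.S1_s_at). Among pairs these ranges were -0.63 to 0.14 for 4CL4 minus 4CL-like, -0.074 to 0.44 for 4CL3 minus 4CL1 and -0.23 to 0.065 for 4CL2 minus 4CL1, and 0.35 to 0.77 for 4CL3 minus 4CL. Probe sets removed by the filters on suffix or dimness have no value there.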
